A study of Mus musculus with 31 samples.

Results

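The data describe polyadenylated RNA of mouse T helper 17 (Th17) cells recovered from the central nervous system (CNS) in experimental autoimmune encephalomyelitis (EAE), a mouse model of multiple sclerosis, with and without targeting of Cyp11a1. The libraries were chosen by experiment: 6 Cyp11a1 conditional knockout (cKO) libraries and 4 Cyp11a1 wild-type (WT) libraries, 10 of the 31 in the study. In both groups naive T cells carried the 2D2 transgene, a T cell receptor for a myelin glycoprotein, on a C57/B6 background. They were turned into homeostatic Th17 cells (Th17Hom) in culture and moved into Rag1 KO recipients, and 2000 of the 2D2+ cells were sorted from brain and spinal cord at the height of disease. The WT group differed from the cKO group only in the Cyp11a1 genotype, per the labels, which call the cKO libraries Cyp11a1 KO (C57/B6). The Cre line or promoter behind the conditional deletion is not given in the sources used here. Recipients without Rag1 cannot form their own T or B lymphocytes but keep myeloid cells, natural killer (NK) cells and the resident cells of the nervous system. The labels do not say whether each library came from its own recipient, so p-values measure the spread among libraries. As a level from T cells kept outside an animal, values from 3 untreated cultures of WT inflammatory Th17 cells (Th17Inf, from spleen and draining lymph node, 2 days) are given in places. Those cultures come from a separate table, so they are levels set across tables and enter no test.

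Cyp11a1 encodes the mitochondrial enzyme that cleaves the side chain of cholesterol to make pregnenolone, the precursor of all steroid hormones. It is best known from the adrenal gland, gonads and placenta, and T cells of some kinds are also known to make steroids with it. Th17 cells are CD4 T cells named for the cytokine interleukin 17. Homeostatic forms keep barriers intact and share features with memory cells, while inflammatory forms drive autoimmune disease and often take on traits of Th1 cells. In EAE such T cells enter the nervous system and meet microglia and infiltrating macrophages, which display antigen on MHC class II molecules.

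Each of the 10 libraries held 4322688 to 5118543 counts, with a count for 14814 to 16408 genes. Levels are given as CPM, counts scaled to the library size and TMM factor. A total of 3 counts, the limit that a count of 0 allows, corresponds to 0.522 to 0.795 CPM across the libraries, and covers counting error only. A set of 12 predicted genes that resemble repeats took 12.9% to 36.8% of the counts, and their sums overlapped between the groups. On the first principal component of log2 levels, with 22.1% of the variance, WT replicates 1 and 4 lay at 28.5 and 28.1 while the other 8 libraries lay between −17.6 and 6.01. On the second component, with 13.3%, all cKO libraries lay above all WT libraries, the lowest cKO value being −2.57 and the highest WT value −3.02.

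**Figure D1:**
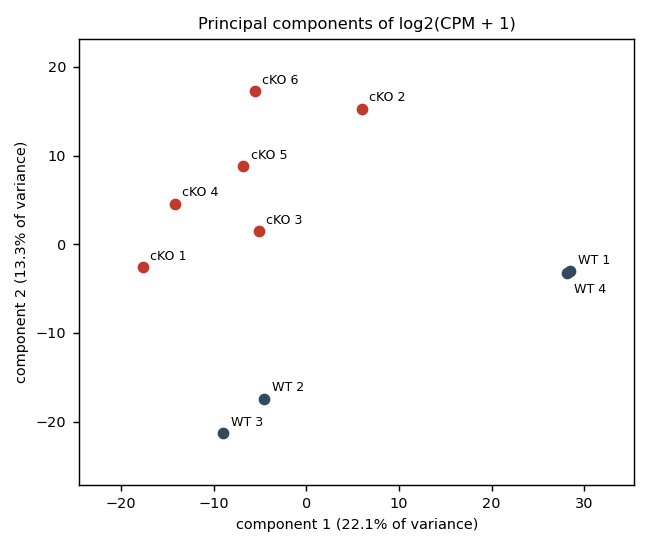
Scores of the 6 cKO libraries (red) and 4 WT libraries (dark) on the first and second principal components of log2(CPM + 1), with the share of variance on each axis. WT 1 and WT 4 sit at the far right, near 28.1 and 28.5, and the cKO libraries sit above the WT libraries on the second axis.

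The sorted cells matched their label as 2D2 T cells. The β-chain segment Trbv16, which the 2D2 receptor uses, made up 99.6% to 99.8% of all Trbv counts in cKO libraries and 99.5% to 99.7% in WT libraries. The segment, outside the naming rule, was looked up as a check after the values were seen. Cd4, the coreceptor of helper T cells, stood at 276 to 321 CPM in cKO libraries and 263 to 327 CPM in WT libraries.

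The targeted gene could not serve as a check of the genotype. Cyp11a1 (chromosome 9, 58006411 to 58027023) had 4 counts in cKO replicate 2, which is 0.98 CPM, and 0 counts in the other 5 cKO libraries. All 4 WT libraries had 0 counts as well. In the untreated Th17Inf cultures the gene averaged 52.3 CPM (range 46.7 to 55.2). Loss of Cyp11a1 RNA was therefore not detectable in the CNS cells at this depth, and the groups are called by their labels. Of the 49 genes within 1 Mb of Cyp11a1, 22 were tested and 0 passed the test described next (smallest edgeR adjusted p = 0.49). Their median log2 fold change was 0.04, against 0.00 over all genes tested.

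Few genes separated the genotypes. In edgeR's quasi-likelihood test with Benjamini-Hochberg adjustment, 18 of 10125 genes (0.178%) passed an adjusted p threshold of 0.05. Of these 14 (0.138%) were higher in cKO and 4 (0.0395%) were lower, and 11 differed at least 2-fold. Of all genes tested 5115 (50.5%) had positive log2 fold changes and 5010 negative ones, the background for the counts of list members below. At an unadjusted p under 0.05 stood 410 genes (4.05%) with higher values in cKO and 400 (3.95%) with lower values. In 100 genes (0.988%) all 6 cKO libraries lay above all 4 WT libraries, and in 99 (0.978%) all lay below. All 18 called genes were among these. The count fell to 11 without WT replicate 1, 10 without WT replicate 4, 6 without both, and 9 without cKO replicate 5. It fell to 5 without cKO replicates 2, 4 and 5, the libraries with haemoglobin RNA described below, an alternative chosen after seeing the data.

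**Figure D2:**
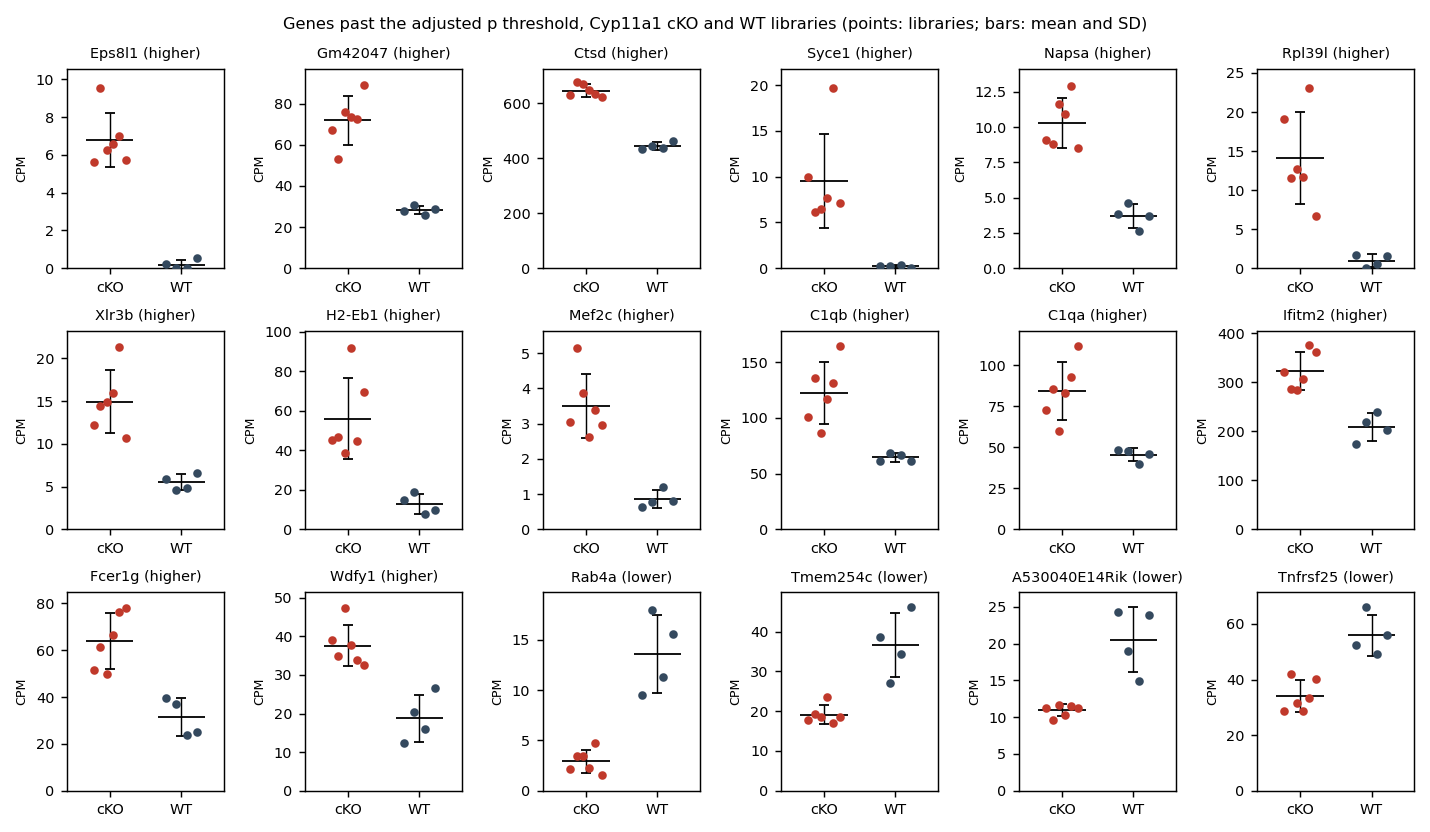
CPM of each library for the 14 genes called higher and the 4 called lower in cKO, with cKO (red, 6 libraries) left of WT (dark, 4 libraries), the mean as a long bar and the SD as whiskers. No panel shows overlap between the groups: Eps8l1 lies at 5.64 to 9.55 CPM in cKO and at most 0.53 in WT, and Rab4a at 1.58 to 4.76 CPM in cKO and at least 9.52 in WT.

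RNA of other cell types was present in every library, and its amount differed between the groups. T cell RNA itself did not separate them: the summed level of 18 T cell identity genes was 35022 to 40065 CPM in cKO and 35060 to 40857 CPM in WT, between 3.14% and 4.04% of counts. Its most abundant member Trbc2, a constant region of the receptor, reached 25294 to 29576 CPM in cKO and 25323 to 29971 CPM in WT. Of the 18 genes, 7 had positive and 11 negative log2 fold changes with a median of −0.01, and 0 passed in edgeR. The largest deviation by p was Trbc1, another constant region, at −0.18 ± 0.08 (edgeR adjusted p = 0.571).

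Myeloid RNA was higher in each cKO library than in any WT library. The sum of 34 microglial, monocyte and macrophage genes had a lowest value of 985, a median of 1280 and a highest value of 1740 CPM in cKO. In WT it was 869, 778, 780 and 951 CPM, and in the Th17Inf cultures 231 to 246 CPM. The microglial part alone stood at 378 to 544 CPM in cKO and 293 to 339 CPM in WT, without overlap. The monocyte and macrophage part stood at 604 to 1234 CPM in cKO and 441 to 644 CPM in WT, with overlap. Of 14 microglial genes tested, 12 had positive log2 fold changes, at a median of 0.52, and 2 passed as higher. Over all genes tested 50.5% were positive and 0.138% passed as higher. Of the defining genes looked up after their values were seen, Sall1 was at 0.217 to 0.679 CPM in cKO and 0 to 0.774 CPM in WT, and P2ry12, a purine receptor of resting microglia, averaged 6.83 CPM in cKO and 7.84 CPM in WT (edgeR adjusted p = 0.933). In sorted bulk cells a rise of such RNA can come from more cells of a type or from more RNA per cell, and these cannot be told apart.

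Genes on the NK and CD8 T cell lists differed less clearly, and which cells their RNA came from was not tested. The sum of 18 NK and CD8 genes had a lowest value of 268, a median of 339 and a highest value of 603 CPM in cKO. In WT it was 114, 109, 432 and 138 CPM, so WT replicate 3 alone overlapped the cKO range. The most abundant of these genes by mean was Gzma, a granule protease, at 122, 201 and 386 CPM as lowest, median and highest cKO value and at 33.4, 39.7, 236 and 68.6 CPM in WT (log2 fold change 1.32 ± 0.60, edgeR adjusted p = 0.639). Levels differed widely among the genes of these lists. Klrd1, a killer-cell receptor chain, averaged 46.5 CPM in cKO and 27.7 CPM in WT, and the CD8 chain gene Cd8b1 18.4 CPM in cKO and 19.3 CPM in WT. Genes looked up after their values were seen were lower. The NK receptor gene Ncr1 averaged 0.222 CPM in cKO and 0.135 CPM in WT, and Cd8a 0.899 CPM in cKO and 0.781 CPM in WT. Perforin, Prf1, averaged 1.09 CPM in cKO and 0.762 CPM in WT.

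Erythroid RNA was high in 3 cKO libraries. Erythroid genes summed to 310, 145 and 595 CPM in cKO replicates 2, 4 and 5, to at most 1.95 CPM in the other cKO libraries, and to 0.696 to 1.85 CPM in WT. The 595 CPM of cKO replicate 5 exceeded each microglial sum and each NK sum. Dendritic cell genes summed to 21.3 to 69.8 CPM in cKO and 9.31 to 23.6 CPM in WT. Neutrophil genes reached 13.8 CPM at most in cKO and 13.0 CPM in WT, and B and plasma cell genes 32.6 CPM at most in cKO and 23.1 CPM in WT. Neural and glial genes summed to 14.5 to 35.2 CPM in cKO and 18.4 to 25.2 CPM in WT, with Mog, Olig1, Aqp4 and Syt1 at 0 in all 10 libraries.

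**Figure D3:**
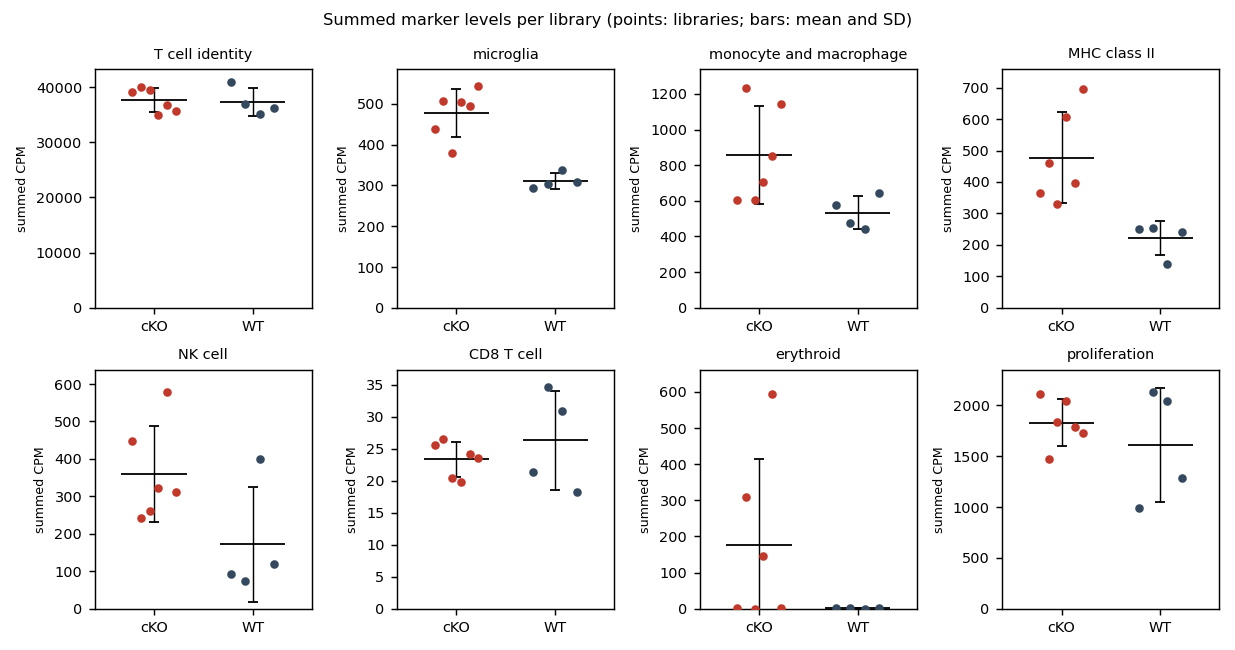
Summed CPM of 8 marker lists in each library, cKO (red, n = 6) left of WT (dark, n = 4), with mean and SD; every axis starts at 0. Microglial and MHC class II sums do not overlap between the groups, T cell identity and proliferation sums do, NK sums overlap through WT replicate 3, and erythroid RNA appears in 3 cKO libraries.

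MHC class II genes had the highest median of the lists with at least 5 members tested, 1.38 on the log2 scale over 8 genes, with 6 positive and 2 negative. Of the 8 genes 1 passed as higher, while over all genes tested 50.5% were positive and 0.138% passed as higher. H2-Eb1 (chromosome 17, 34305867 to 34316674), the β chain of a class II molecule, passed the test. It was at 38.7, 46.0 and 91.6 CPM as lowest, median and highest cKO value and at 14.8, 18.8, 7.65 and 9.80 CPM in WT. The lowest cKO library was above the highest WT library, with cKO replicates 4 and 6 the highest for class II RNA as a whole. Its log2 fold change was 2.14 ± 0.31 (edgeR adjusted p = 0.0192), and without the filter on low counts it did not pass (edgeR adjusted p = 0.1).

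H2-Aa, the α chain of another class II molecule, had 49.0, 76.7 and 123 CPM as lowest, median and highest cKO value and 20.7, 35.6, 12.4 and 18.0 CPM in WT (edgeR adjusted p = 0.0574). H2-Ab1, its β chain partner, had 63.2, 88.0 and 163 CPM in cKO and 29.0, 42.0, 8.87 and 20.9 CPM in WT (edgeR adjusted p = 0.149). Cd74, the invariant chain that escorts class II molecules, had 71.6, 98.6 and 169 CPM in cKO and 45.7, 47.4, 13.6 and 36.0 CPM in WT (edgeR adjusted p = 0.187). In these 3 genes the groups did not overlap and WT replicate 3 was the lowest of all libraries, but none passed. H2-DMb1, a chain of the peptide-exchange factor H2-DM, did not overlap either, at 9.06 to 21.6 CPM in cKO and 5.50 to 7.36 CPM in WT (edgeR adjusted p = 0.105). With H2-Eb1, 5 of the 8 class II genes tested were higher in every cKO library than in any WT library, against 0.988% of all genes tested. H2-DMa, the partner of H2-DMb1, overlapped, at 56.8 to 115 CPM in cKO and 71.5 to 107 CPM in WT (log2 fold change −0.13 ± 0.18). Ciita, which encodes the master activator of the class II genes, had too few counts to be tested. The Th17Inf cultures also held class II RNA, 690 to 744 CPM in sum, but H2-Aa averaged only 2.17 CPM there and H2-Eb1 20.4 CPM. Other members of the list therefore made up most of that sum. Myeloid RNA, given above, was also higher in every cKO library, and its part in these genes was not tested. The highest myeloid sum, 1740 CPM, was in cKO replicate 2, and the highest class II sum, 694 CPM, in cKO replicate 6. With the myeloid sum as covariate the median of the list was 0.90.

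Class II promoters share a conserved block whose Y box carries an inverted CCAAT element, bound by the factor NF-Y. Windows from 250 bases before to 50 bases after the start, from RefSeq on GRCm38.p6, were found for 3 of the 4 class II chain genes searched (H2-Eb1, H2-Aa and H2-DMb1, not H2-Ab1), and are shown because H2-Eb1 was called and the other two were higher in every cKO library. The letters TGATTGG, in capitals, occurred once on the forward strand in each, 61, 50 and 63 bases before the start in H2-Eb1, H2-Aa and H2-DMb1. On either strand they occurred in 2568 of 32851 windows of the same length, which is 7.817%. The positions are chr17:34305617-34305916 on the plus strand for H2-Eb1, chr17:34287774-34288073 on the minus strand for H2-Aa and chr17:34152941-34153240 on the plus strand for H2-DMb1. A match of letters is a description of the window and not a measured binding site. Class II promoters share this block, so matches in such windows were likely from the start. H2-DMa, which overlapped between the groups, was not searched, and a link between the letters and the group difference was not tested.
H2-Eb1: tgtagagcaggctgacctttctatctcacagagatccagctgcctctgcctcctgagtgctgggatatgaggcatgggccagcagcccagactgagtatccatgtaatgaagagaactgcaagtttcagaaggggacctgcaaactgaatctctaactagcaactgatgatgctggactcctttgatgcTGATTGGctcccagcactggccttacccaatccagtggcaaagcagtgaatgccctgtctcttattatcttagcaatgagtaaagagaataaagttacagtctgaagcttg
H2-Aa: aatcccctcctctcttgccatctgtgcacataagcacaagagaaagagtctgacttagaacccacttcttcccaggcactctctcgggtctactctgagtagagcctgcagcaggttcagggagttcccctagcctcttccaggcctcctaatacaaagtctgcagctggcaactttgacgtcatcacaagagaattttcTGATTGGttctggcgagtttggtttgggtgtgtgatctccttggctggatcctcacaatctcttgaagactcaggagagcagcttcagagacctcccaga
H2-DMb1: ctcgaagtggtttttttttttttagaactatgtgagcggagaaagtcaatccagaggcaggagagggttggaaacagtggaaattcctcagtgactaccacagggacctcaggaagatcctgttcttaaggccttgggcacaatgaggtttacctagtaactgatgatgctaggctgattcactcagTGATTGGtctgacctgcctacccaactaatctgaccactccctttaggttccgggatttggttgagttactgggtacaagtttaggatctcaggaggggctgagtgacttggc

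C1qb, C1qa and Fcer1g, genes that phagocytes express, rose in cKO, while C1qc, Tyrobp and Csf1r did not pass. C1qb (chromosome 4, 136880129 to 136886187), a chain of the complement starter C1q, had 86.2, 124 and 165 CPM as lowest, median and highest cKO value and 61.8, 68.9, 66.8 and 60.9 CPM in WT. C1qa (chromosome 4, 136895917 to 136898803), another chain, had 59.8, 84.3 and 112 CPM in cKO and 48.5, 47.6, 39.7 and 46.1 CPM in WT. The WT libraries lay close together in both genes and below each cKO library. The log2 fold changes were 0.92 ± 0.15 and 0.89 ± 0.15 in this order (edgeR adjusted p = 0.0266 for both). C1qc, the last chain of C1q, overlapped between the groups at 18.0 to 37.7 CPM in cKO and 17.4 to 27.8 CPM in WT (edgeR adjusted p = 0.52).

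Fcer1g (chromosome 1, 171229572 to 171234365), the signalling chain of Fc receptors, had 49.7, 63.9 and 78.1 CPM in cKO and 39.8, 37.2, 23.8 and 24.9 CPM in WT, without overlap. Its log2 fold change was 1.02 ± 0.18 (edgeR adjusted p = 0.0366). Tyrobp, an adaptor that works with similar receptors in myeloid and NK cells, did not pass at 59.5 to 114 CPM in cKO and 38.8 to 50.1 CPM in WT (edgeR adjusted p = 0.0638). Csf1r, the receptor for the growth factor that keeps microglia alive, stood at 24.7 to 31.8 CPM in cKO and 13.3 to 20.5 CPM in WT, also without overlap (edgeR adjusted p = 0.0524). C1qa, Fcer1g, Tyrobp and Csf1r were all at 0 in the Th17Inf cultures, and C1qb averaged 0.119 CPM there.

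In 5 of the 14 microglial genes tested the cKO libraries lay above all WT libraries, which for single genes happened in 0.988% of all tested. All 15 tested monocyte and macrophage genes had positive values with a median of 0.83, and 1 passed. Over all genes tested 50.5% were positive and 0.138% passed as higher. Apoe, a lipid carrier abundant in microglia and macrophages, varied most, at 34.9 to 386 CPM in cKO and 27.0 to 199 CPM in WT (edgeR adjusted p = 0.892). Mef2c (chromosome 13, 83504034 to 83667080), a transcription factor gene active in microglia, neurons and B cells among others, was at 0 in the Th17Inf cultures as well. It stood at 2.63, 3.22 and 5.14 CPM as lowest, median and highest cKO value and at 0.635, 0.774, 1.22 and 0.795 CPM in WT (log2 fold change 1.97 ± 0.31, edgeR adjusted p = 0.0219). With 17 counts in all WT libraries together, Mef2c passed the filter on low counts only through the cKO libraries. Its low WT level and large ratio are therefore no separate support.

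When the summed level of the 34 myeloid genes entered the fit as a covariate, 8 genes passed and 4 of the 18 were among them: Eps8l1, Gm42047, Ctsd and Syce1. The log2 fold change of C1qb was then 0.40 (edgeR adjusted p = 0.402) and that of C1qa 0.41 (edgeR adjusted p = 0.4). Both genes are part of that sum, so some of their fall was built into the fit. H2-Eb1, which is not part of it, stood at 1.96 (edgeR adjusted p = 0.215), and these values cannot be compared with each other. Myeloid RNA and genotype do not overlap between these libraries, so that fit cannot tell them apart. With the NK and CD8 sum as covariate 4 genes passed, and they were the same 4 genes.

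Genes of lysosomal proteases leaned upward. Of 22 cathepsin and lysosome genes tested, 20 had positive values with a median of 0.25, 2 passed as higher, and in 6 the cKO libraries lay above all WT libraries. Over all genes tested 50.5% were positive, 0.138% passed as higher and 0.988% lay above. This list, like the other marker lists, was chosen with earlier results of these data known, which limits that comparison. Ctsd (chromosome 7, 142375911 to 142388038), the aspartic protease cathepsin D, was the most precise of the called genes. It was at 623, 639 and 676 CPM as lowest, median and highest cKO value and at 433, 444, 438 and 464 CPM in WT, so the gap between the groups was wider than either group's range. Its log2 fold change was 0.54 ± 0.06 (edgeR adjusted p = 0.000764), and its level in the Th17Inf cultures was 95.9 CPM. Of the 38-base words in its transcripts, 32.9% also occurred in Gm49369, so counts of these may be shared.

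Napsa (chromosome 7, 44572380 to 44586862), a related aspartic protease, had 8.50, 10.01 and 12.9 CPM in cKO and 3.81, 4.65, 2.61 and 3.71 CPM in WT (log2 fold change 1.48 ± 0.20, edgeR adjusted p = 0.00705). Other genes held 16.7% of its words. Each cKO library was well above the highest WT library. Lgmn, the asparagine-cleaving legumain, did not pass at 26.9 to 39.9 CPM in cKO and 15.9 to 22.5 CPM in WT (edgeR adjusted p = 0.0638). Ctss, the cathepsin that trims the invariant chain, likewise stood at 240 to 317 CPM in cKO and 162 to 231 CPM in WT (edgeR adjusted p = 0.208). Ctsb, an abundant cysteine cathepsin, did not pass, at 327 ± 49.3 CPM in cKO and 327 ± 47.3 CPM in WT (SD, n = 6 and n = 4). With the myeloid sum as covariate the median of the list was −0.00, and Ctss is itself part of that sum.

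Several genes were close to absent in WT and present in every cKO library. They passed the filter on low counts only through the cKO libraries, and the test picked them from these same values. Their low WT levels and large ratios are therefore no separate support. Eps8l1 (chromosome 7, 4460674 to 4480487), a relative of the actin regulator EPS8, had 5.64, 6.41 and 9.55 CPM as lowest, median and highest cKO value and 0.212, 0, 0 and 0.53 CPM in WT. The 6 cKO libraries together gave 189 counts and the 4 WT libraries 3, a ratio of 43.5 per effective library size with a 95% exact interval of 14.7 to 213 that covers counting error only. The fitted log2 fold change was 5.22 ± 0.48 (edgeR adjusted p = 0.000393). Th17Inf cultures of WT cells held 5.67 CPM, close to the cKO level.

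Syce1 (chromosome 7, 140777229 to 140787852), a protein of the synaptonemal complex of meiosis, had 6.12, 7.42 and 19.7 CPM in cKO and 0.212, 0.194, 0.348 and 0 CPM in WT. Its 265 counts in cKO and 4 in WT gave a ratio of 45.7 with an exact interval of 17.7 to 169. The fitted log2 fold change was 5.36 ± 0.58 (edgeR adjusted p = 0.000764), and unlike Eps8l1 it was at 0 in the Th17Inf cultures. Rpl39l (chromosome 16, 10170226 to 10174911), a relative of the ribosomal protein RPL39 known from the testis, had 6.72, 12.2 and 23.1 CPM in cKO and 1.69, 0, 0.522 and 1.59 CPM in WT (log2 fold change 3.95 ± 0.53, edgeR adjusted p = 0.00705). Rpl39 itself averaged 1504 CPM in cKO and 1425 CPM in WT (edgeR adjusted p = 0.84), and 1.21% of the 38-base words of Rpl39l occurred in another gene. None of these 3 genes overlapped between the groups, which held for all 18 called genes.

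The remaining genes called higher were of mixed kinds. Gm42047 (chromosome 8, 121833247 to 121841178), a long noncoding RNA of unstated function, had 52.9, 73.2 and 89.0 CPM in cKO and 27.9, 30.6, 26.1 and 28.9 CPM in WT (log2 fold change 1.34 ± 0.13, edgeR adjusted p = 0.000393). Xlr3b (chromosome X, 73192207 to 73202930), of a lymphocyte-regulated gene family, had 10.7, 14.6 and 21.3 CPM in cKO and 5.92, 4.65, 4.87 and 6.62 CPM in WT (log2 fold change 1.44 ± 0.21, edgeR adjusted p = 0.0103). Both share most of their sequence with copies, 69.5% and 63.9% of their words in this order, so the reads behind them are uncertain. The summed level of Xlr3a, Xlr3b and Xlr3c was 12.7 to 23.6 CPM in cKO and 5.74 to 9.01 CPM in WT, still without overlap.

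Ifitm2 (chromosome 7, 140954837 to 140955987), an interferon-inducible membrane protein that restricts viruses, had 284, 313 and 376 CPM in cKO and 174, 219, 240 and 203 CPM in WT (log2 fold change 0.63 ± 0.11, edgeR adjusted p = 0.0321). Other genes, Gm45717 the foremost, held 52.6% of its words. Its neighbours in the family did not pass, with Ifitm3 at 454 ± 104 CPM in cKO and 320 ± 86.4 CPM in WT and Ifitm1 at 82.6 ± 30.8 CPM in cKO and 34.8 ± 31.8 CPM in WT (edgeR adjusted p = 0.532 and 0.603). Wdfy1 (chromosome 1, 79702262 to 79776143), an endosomal adaptor of Toll-like receptor signalling, had 32.6, 36.3 and 47.3 CPM in cKO and 12.3, 20.3, 16.0 and 26.5 CPM in WT (log2 fold change 1.02 ± 0.18, edgeR adjusted p = 0.0434). Over the interferon response list 10 of 19 genes were positive with a median of 0.00, and Ifitm2 was the 1 called.

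Of the 4 genes that fell, Rab4a (chromosome 8, 123805985 to 123835287), a GTPase that sends endosomes back to the cell surface, fell most. It was at 1.58, 2.84 and 4.76 CPM as lowest, median and highest cKO value and at 9.52, 18.0, 11.3 and 15.6 CPM in WT. All cKO libraries were below the lowest WT library, and the Th17Inf cultures held 1.51 CPM. The log2 fold change was −2.22 ± 0.27 (edgeR adjusted p = 0.0023). Its relative Rab4b did not pass, at 62.2 ± 4.35 CPM in cKO and 65.6 ± 4.60 CPM in WT (edgeR adjusted p = 0.877).

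Tnfrsf25 (chromosome 4, 152115934 to 152120119), the costimulatory receptor DR3 of T cells, had 28.6, 32.3 and 41.9 CPM in cKO and 52.3, 66.2, 49.1 and 55.9 CPM in WT, without overlap. Its log2 fold change was −0.72 ± 0.13 (edgeR adjusted p = 0.0456). Among 14 TNF receptor genes tested 12 had negative values with a median of −0.15, and Tnfrsf25 was the 1 called. Tnfrsf8, which encodes CD30, had a log2 fold change of −0.72 ± 0.30 at a low level, 2.72 CPM in cKO and 4.48 CPM in WT (edgeR adjusted p = 0.555). Tnfrsf4, which encodes OX40, averaged 180 ± 31.5 CPM in cKO and 204 ± 21.0 CPM in WT, and Tnfrsf18, which encodes GITR, 190 ± 30.03 CPM in cKO and 197 ± 22.5 CPM in WT.

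Tmem254c (chromosome 14, 26063919 to 26067355), a membrane protein gene, had 17.0, 18.5 and 23.5 CPM in cKO and 38.7, 27.1, 34.4 and 46.1 CPM in WT (log2 fold change −0.93 ± 0.14, edgeR adjusted p = 0.0192). All of its 38-base words, 100%, also occur in its copies Tmem254a and Tmem254b, so the member of origin is uncertain. Summed over the copies the level was 21.6 to 29.0 CPM in cKO and 40.5 to 53.8 CPM in WT, which did not overlap. A530040E14Rik (chromosome 1, 85105946 to 85114035) is annotated as an antisense transcript, and the library protocol keeps no strand, so its reads cannot be told apart from those of the gene it overlaps. It had 9.55, 11.3 and 11.6 CPM in cKO and 24.3, 19.0, 14.96 and 23.8 CPM in WT (log2 fold change −0.90 ± 0.15, edgeR adjusted p = 0.0266). Other genes held 44.8% of its 38-base words, so its reads are uncertain. Among them was C130026I21Rik, a neighbour within 1 Mb in which all cKO libraries also lay below all WT libraries.

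Genes of stem-like and memory T cells had lower values in cKO, though none passed. Of 14 tested 12 were negative, with a median log2 fold change of −0.32, and in 3 all cKO libraries lay below all WT libraries, against 0.978% of all genes. Tcf7, which encodes TCF-1, the central factor of such cells, had 46.4, 57.0 and 70.8 CPM as lowest, median and highest cKO value and 98.6, 74.2, 75.0 and 98.6 CPM in WT. The groups did not overlap, and the log2 fold change was −0.59 ± 0.12 (edgeR adjusted p = 0.101). Bach2, a repressor that holds T cells back from effector fate, had 1.88, 3.21 and 4.15 CPM in cKO and 6.56, 6.97, 9.05 and 4.50 CPM in WT (edgeR adjusted p = 0.14). Ccr7, the homing receptor for lymph nodes, had 17.8, 24.9 and 31.9 CPM in cKO and 33.01, 37.9, 41.2 and 34.4 CPM in WT (edgeR adjusted p = 0.169). WT replicates 1 and 4 were the highest for Tcf7 and for Il7r, the interleukin 7 receptor, which overlapped at 59.4 to 101 CPM in cKO and 133, 73.8, 74.6 and 160 CPM in WT. Without these WT libraries the median of the list was −0.08. Foxp1, a factor of T cell quiescence, lay outside the list and stood at 15.6 to 18.1 CPM in cKO and 22.2 to 24.4 CPM in WT (log2 fold change −0.44 ± 0.10, edgeR adjusted p = 0.122).

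Th17 genes showed the same sign without any call. Of 15 Th17 identity genes 12 were negative with a median of −0.20. Ccr6, the chemokine receptor typical of Th17 cells, had 13.4, 28.9 and 51.9 CPM in cKO and 76.6, 70.3, 49.1 and 75.2 CPM in WT (log2 fold change −1.12 ± 0.36, edgeR adjusted p = 0.406). Il23r, which receives the interleukin that stabilises Th17 cells, had 1.302, 2.18 and 3.36 CPM in cKO and 4.87, 3.87, 3.13 and 4.77 CPM in WT (edgeR adjusted p = 0.313). In Ccr6 and Il23r WT replicate 3 was the lowest WT library and lay inside the cKO range.

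The homeostatic Th17 list shares Tcf7 and Slamf6 with the stem-like list and Maf with the Th17 identity list, so their medians are not independent. Of 10 homeostatic Th17 genes 9 were negative with a median of −0.30, and 0 passed. They include Tcf7, Maf, a factor for interleukin 10, at 29.5 ± 5.31 CPM in cKO and 37.6 ± 7.31 CPM in WT, and Slamf6, a marker of stem-like Th17 cells, at 29.5 ± 7.26 CPM in cKO and 46.4 ± 15.7 CPM in WT (edgeR adjusted p = 0.593 and 0.394). Foxp3, the factor of regulatory T cells, ranged widely at 3.20 to 26.7 CPM in cKO and 59.2, 14.1, 9.22 and 42.9 CPM in WT, with WT replicates 1 and 4 the highest (edgeR adjusted p = 0.565). Over the 9 Treg genes tested 8 were negative with a median of −0.10, which was 0.03 without WT replicates 1 and 4. The 4 Th2 genes tested had a median of −0.01. Among them Ccr4, a chemokine receptor, had 27.3 to 43.3 CPM in cKO and 37.4 to 60.0 CPM in WT (log2 fold change −0.64 ± 0.15, edgeR adjusted p = 0.149).

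**Figure D4:**
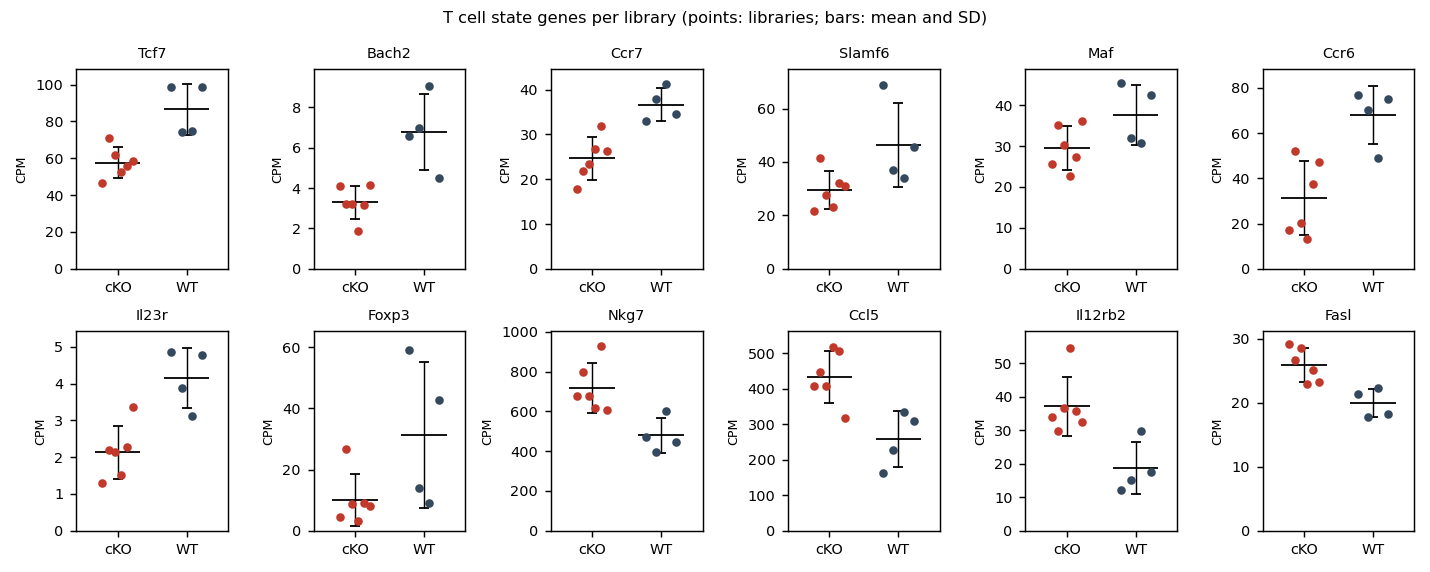
CPM of 12 T cell state genes in each library, cKO (red, n = 6) left of WT (dark, n = 4), with mean and SD; none of these genes passed the adjusted p threshold. Tcf7, Bach2 and Ccr7 lie lower in every cKO library than in any WT library, Nkg7 and Fasl lie higher, and the other 7 overlap.

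Th1 and cytotoxic genes had higher values in cKO, again with 0 past the threshold. Of 13 Th1 genes 9 were positive with a median of 0.37, and of 10 cytotoxic granule genes 8 were positive with a median of 0.47. These lists share members, among them Nkg7 and Fasl. The Th1 list also shares Ccl5 and Cxcr6 with the inflammatory Th17 list, so the medians are not independent of each other. Nkg7, a granule protein of cytotoxic cells, had 608, 677 and 929 CPM as lowest, median and highest cKO value and 471, 395, 604 and 448 CPM in WT. The highest WT library, replicate 3, lay just under the lowest cKO library, and the log2 fold change was 0.58 ± 0.14 (edgeR adjusted p = 0.149). Ctsw, a cathepsin of cytotoxic lymphocytes, had 390, 435 and 475 CPM in cKO and 330, 306, 356 and 305 CPM in WT (log2 fold change 0.41 ± 0.08, edgeR adjusted p = 0.0574). Fasl, the death ligand, stood at 22.9 to 29.1 CPM in cKO and 17.8 to 22.3 CPM in WT (edgeR adjusted p = 0.367). Il12rb2, a chain of the interleukin 12 receptor, overlapped through WT replicate 3 at 29.9 to 54.6 CPM in cKO and 12.1, 15.3, 29.9 and 17.5 CPM in WT (edgeR adjusted p = 0.156).

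The sum of NK and CD8 genes, given above, moved with these genes, being high in WT replicate 3 as well, and its part in them was not tested. Without WT replicate 3 the median of 7 NK genes was 1.40 on the log2 scale, against 0.73 with it. With the NK and CD8 sum as covariate the median was 0.18 for both the Th1 and the cytotoxic granule list, and −0.05 for the NK genes. The NK genes are part of that sum, so the fall of their median was built into the fit. The cytotoxic granule list also overlaps with the genes of that sum. Klrd1, a killer-cell receptor chain, had 39.3, 44.2 and 62.3 CPM in cKO and 18.8, 10.3, 57.4 and 24.1 CPM in WT (edgeR adjusted p = 0.713). The 3 CD8 genes tested all had negative values, with Cd8b1 at 18.4 ± 2.00 CPM in cKO and 19.3 ± 3.17 CPM in WT. Of 14 inflammatory Th17 genes 8 were positive with a median of 0.31, led by the chemokine Ccl5 at 318 to 518 CPM in cKO and 164 to 335 CPM in WT (edgeR adjusted p = 0.238). That median was −0.10 with the NK and CD8 sum as covariate, and 0.01 without WT replicates 1 and 4. The 9 co-inhibitory receptors had a median of −0.07, which was 0.13 without WT replicates 1 and 4 and 0.03 with the NK and CD8 sum as covariate, with Pdcd1, which encodes PD-1, at 134 ± 27.2 CPM in cKO and 109 ± 14.7 CPM in WT.

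**Figure D5:**
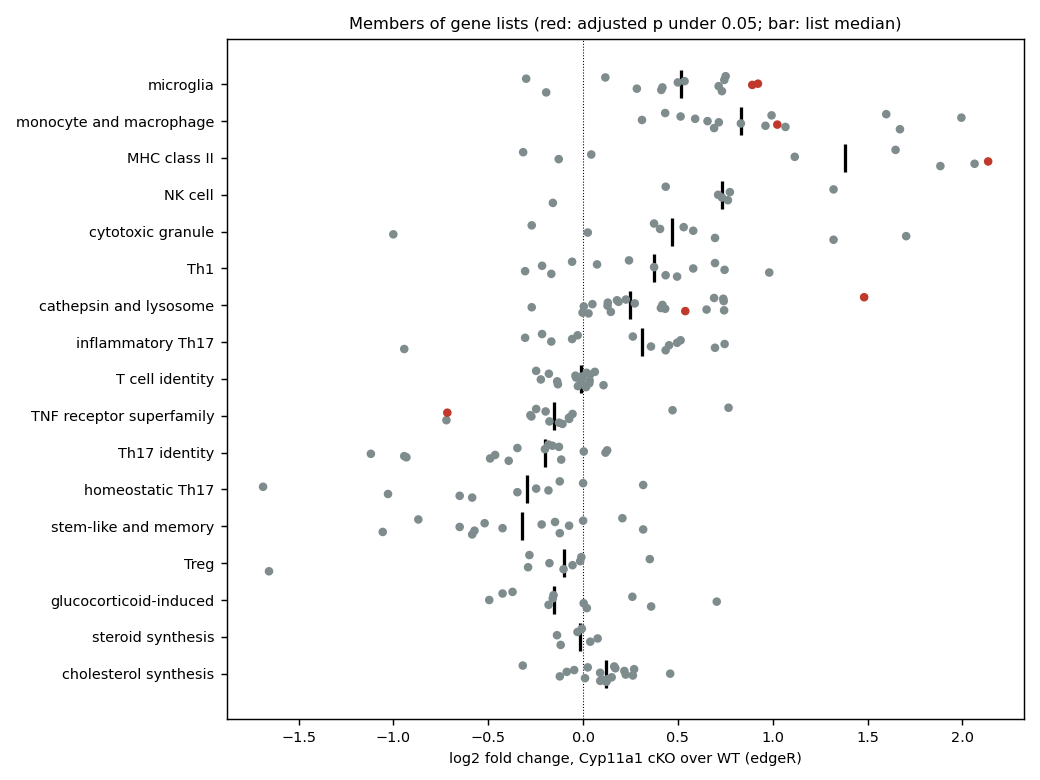
Log2 fold change of cKO over WT from edgeR for each tested member of 17 gene lists, with called genes in red and the list median as a bar. Myeloid, MHC class II and cytotoxic lists sit right of 0 and homeostatic Th17 and stem-like lists left of it, while T cell identity is centred at −0.01 and no list holds more than 2 red points.

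No gene of the lists tied to the targeted enzyme passed. Of 20 steroid synthesis genes 6 were tested, 0 passed, and the median was −0.02. Tspo, a mitochondrial protein linked to cholesterol import, averaged 339 ± 21.0 CPM in cKO and 330 ± 22.3 CPM in WT (edgeR adjusted p = 0.939), and Fdx1, the electron donor of CYP11A1, 17.8 ± 2.80 CPM in cKO and 16.9 ± 1.95 CPM in WT (edgeR adjusted p = 0.936). Hsd11b1, which regenerates active glucocorticoid, averaged 34.8 ± 4.15 CPM in cKO and 35.4 ± 4.05 CPM in WT (edgeR adjusted p = 0.971). Cyp11b1, Hsd3b6 and the progesterone receptor gene Pgr were at 0 in all 10 libraries. Of 19 cholesterol genes 15 were positive with a median of 0.12 and 0 passed. The sign turned without WT replicate 1 (−0.01), without WT replicate 4 (−0.00), without both (−0.13, with 5 of 19 positive) and with the NK and CD8 sum as covariate (−0.02). Nr3c1, the glucocorticoid receptor gene, averaged 10.2 ± 1.32 CPM in cKO and 10.3 ± 2.07 CPM in WT (edgeR adjusted p = 0.995).

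Of 11 glucocorticoid-induced genes 5 were positive and 6 negative, with a median of −0.16. That median was 0.16 without WT replicate 4, 0.45 without WT replicates 1 and 4, and 0.13 with the NK and CD8 sum as covariate. Sgk1, a kinase induced by glucocorticoids, stood at 19.5 ± 7.95 CPM in cKO and 12.1 ± 4.56 CPM in WT, and Ddit4, an inhibitor of mTOR signalling, at 17.2 ± 2.27 CPM in cKO and 24.6 ± 9.96 CPM in WT (edgeR adjusted p = 0.617 and 0.551). Dusp1, a phosphatase also induced by stress, stood at 193 ± 37.9 CPM in cKO and 193 ± 76.0 CPM in WT.

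Proliferation genes were lowest in WT replicates 1 and 4. Of 22 proliferation genes 21 were positive with a median of 0.19 and 0 passed, but without these WT libraries the median was −0.18. Their sum was 1476 to 2117 CPM in cKO and 994, 2131, 2044 and 1286 CPM in WT, with WT replicates 1 and 4 the lowest of all. Of 16 glycolysis and hypoxia genes 13 were positive with a median of 0.16, with Gapdh at 2292 to 2926 CPM in cKO and 1817 to 2538 CPM in WT (edgeR adjusted p = 0.713). That median was −0.02 without WT replicates 1 and 4 (7 of 16 positive) and −0.04 with the NK and CD8 sum as covariate (4 of 16 positive). Of 18 immediate-early genes 13 were positive with a median of 0.14, which was −0.04 with the myeloid sum as covariate. Of 20 migration receptors 13 were negative with a median of −0.07, among them Itga4, the α4 integrin by which T cells enter the brain, at 26.7 to 32.4 CPM in cKO and 33.1 to 46.4 CPM in WT (edgeR adjusted p = 0.366).

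Genes of the mitochondrial genome, a list added after their values were seen, were all lower in cKO by sign, 13 of 13, with a median of −0.18 and 0 past the threshold. With the myeloid sum as covariate the median was −0.06 and 4 of 13 were positive, with mt-Nd1 at −0.14. Their sum was 12218, 13797 and 14576 CPM as lowest, median and highest cKO value and 16020, 15378, 14856 and 15586 CPM in WT, which did not overlap. mt-Nd1, a subunit of respiratory complex I, had 966, 1119 and 1188 CPM in cKO and 1376, 1341, 1372 and 1400 CPM in WT (log2 fold change −0.32 ± 0.07, edgeR adjusted p = 0.0974). mt-Nd4, another subunit, had 281, 311 and 322 CPM in cKO and 409, 371, 354 and 366 CPM in WT (edgeR adjusted p = 0.149).

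By position, 5 of the 18 called genes lay on chromosome 7, which holds 7.51% of the tested genes with a position: Eps8l1, Ctsd, Syce1, Napsa and Ifitm2. Syce1 and Ifitm2 lie within 1 Mb of each other, as do C1qa and C1qb, and no other called pair does. Within 1 Mb of H2-Eb1, 6 of 78 tested genes did not overlap between the groups, namely Prrt1, Aif1, Agpat1, H2-Aa, H2-Ab1 and H2-DMb1, of which 5 were higher in cKO and 1 lower, against 0.988% above and 0.978% below over all genes tested. Around Ctsd, Rab4a, Napsa, Rpl39l, Tmem254c, Wdfy1, Gm42047, Mef2c and Tnfrsf25 no neighbour within 1 Mb separated the groups.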

How the data were processed

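Counts per gene were used as the authors deposited them, in tables of 31053 symbols, and 0 columns were left without a library. Per the submitters' processing notes, RSEM 1.3.3 and the mm10 build were used. Per the labels, 2000 cells were sorted per library and polyadenylated RNA was amplified with a modified SMART-Seq2 protocol, tagged with Nextera XT and read as pairs of 38 bases, without strand or molecular identifiers. Libraries were grouped by their labels. Positions come from GENCODE M21 on GRCm38 and were found for 30416 symbols. The analysis used R 4.3.3 with edgeR 4.0.16 (filterByExpr, TMM, robust quasi-likelihood fit, adjusted p threshold 0.05). Effects are log2 fold changes ± standard error, and levels are CPM ± SD.

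Members and lists (33 lists with 412 genes, and others marked as added) were chosen with earlier results of these data known. Named were Cyp11a1 and Nr3c1, all genes past the threshold, 6 per direction next by p whose mean log2 CPM was 4 or more, and per list up to 4 genes of smallest p and the 2 of highest level. Other genes were named after their values were seen, among them Cd4, Sall1, P2ry12, Ncr1, Cd8a, Prf1, C1qc, Ciita, Rab4b and Rpl39. Shared sequence was counted as the share of a gene's 38-base words, in GENCODE transcripts, found in another gene. Replicate pairs spread more than counting error (chi-square per degree of freedom 3.85 to 69.1 over genes with at least 20 counts). The edgeR test was also run on counts simulated from each gene's mean and dispersion. Such counts lack the shared differences among libraries seen here, so that run does not cover them. Alternatives were other scaling, other filters, DESeq2 1.42.0, limma 3.58.1 voom with sample weights, a replicate block, marker sums as covariates, and libraries left out. Of the Th17 identity list, 1 gene is not reported by name here.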

Additional observations from a re-analysis of the deposited data

Results flagged for a closer look

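In 80 groups of values checked for a library far from the others of its group, 10 were found, where chance gives about 1 in 20. Cyp11a1 was at 0.98 CPM in cKO replicate 2 with the other cKO libraries at 0. Eps8l1 was at 9.55 CPM in cKO replicate 2, with the others at 5.64 to 7.02 CPM. Syce1 was at 19.7 CPM in cKO replicate 5, with the others at 6.12 to 9.98 CPM. Tmem254c was at 23.5 CPM in cKO replicate 4, with the others at 17.0 to 19.4 CPM, and Ccr4 at 43.3 CPM in cKO replicate 6, with the others at 27.3 to 31.9 CPM. In Eps8l1 and Syce1 the remaining cKO libraries were above all WT libraries too.

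Among marker sums, the NK and CD8 sum was at 432 CPM in WT replicate 3, with the other WT libraries at 109 to 138 CPM, and the MHC class II sum was at 140 CPM in the same library, with the others at 240 to 253 CPM. The neutrophil sum was at 13.8 CPM in cKO replicate 6, with the others at 1.51 to 3.69 CPM, and at 13.0 CPM in WT replicate 4, with the others at 1.36 to 3.31 CPM. The B and plasma cell sum was at 32.6 CPM in cKO replicate 2, with the others at 11.1 to 16.3 CPM. The cause of these values was not tested.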

How the results depend on the processing

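No called gene turned its direction in any of the 21 or 22 alternatives that gave it a value. All 18 were without overlap between the groups, so leaving out libraries could hardly have turned one. With a mean count of at least 50, 6 of the 18 had none (Eps8l1, Mef2c, Napsa, Rab4a, Rpl39l and Syce1), and the other 12 were among 14 called. Against 18 genes called (14 higher and 4 lower in cKO), DESeq2 called 63 (47 and 16), with all 18 among them, and no filter on low counts gave 33 (26 and 7), with 17 of the 18. Limma voom with sample weights called 6 (5 and 1), the myeloid covariate 8 (5 and 3), and the NK and CD8 covariate 4 (4 and 0). Without WT replicates 1 and 4 together 6 genes were called (5 and 1), and without cKO replicates 2, 4 and 5 together, a fit chosen after seeing the data, 5 (3 and 2). Leaving out 1 library at a time gave 9 to 22 genes, 8 to 17 higher and 1 to 5 lower. Other scaling and removal of the repeat-like genes gave 18 to 19 genes, all 18 included. Same-numbered libraries deviated from their group means with correlations of −0.139, −0.148, −0.0484 and −0.0808. Pairs with different numbers were not compared, and the labels do not say whether equal numbers share an animal or day. Whether the replicate numbers pair the samples therefore stays undecided. With a replicate block 1 gene was called (1 higher and 0 lower, Syce1), and cKO replicates 5 and 6 each stood alone in a block level. Eps8l1 and Gm42047 lost their call in 1 alternative each, Ctsd and Syce1 in 2 each, and Wdfy1 in 15 of 22. Apart from the effect of fewer libraries in a fit, the cause of these shifts was not tested. List medians of T cell identity, steroid synthesis and interferon response lay near 0 and changed sign in 6, 10 and 10 alternatives. Those of MHC class II (0.90 to 1.84), microglia (0.32 to 0.59), stem-like (−0.54 to −0.08) and Th17 identity genes (−0.39 to −0.11) kept their sign. Depth limits statements on genes near 0.522 to 0.795 CPM.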

Other observations

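Receptor and ribosome RNA gave further values outside the comparisons above. The α-chain segments Trav9n-3 and Trav9d-3, near copies of each other, split the Trav counts unevenly: Trav9n-3 held 38.7% to 70.4% in cKO libraries and 26.0% to 57.7% in WT libraries, and Trav9d-3 held 19.5% to 51.7% in cKO libraries and 31.4% to 62.9% in WT libraries. Reads of such copies are uncertain. Of 86 cytosolic ribosomal protein genes tested, a list added after values were seen, 66 were positive with a median log2 fold change of 0.03, and Rpl39l was the 1 called. The next ribosomal gene by p was Rpl28, at 1064 CPM on average in cKO and 911 CPM in WT (edgeR adjusted p = 0.49). Pecam1, an adhesion molecule of endothelium that T cells also express, stood at 22.6 ± 4.12 CPM in cKO and 32.2 ± 3.80 CPM in WT (edgeR adjusted p = 0.261), while the endothelial gene Cdh5 was at 0 in all 10 libraries.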
